A study of Gallus gallus with 6 samples.

Results

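CFLAR, BCL2 and 5 further regulators of cell death, BCL2L1, MCL1, CASP8, FADD and FAS, were followed in cultured chicken neural crest cells. These 7 genes, of 13009 that the platform annotation names by 1 symbol, were taken as every probe set whose annotation gives exactly 1 symbol equal to one of them. CFLAR was chosen by its measured difference between the groups, and the difference of 1 BCL2 probe set was also known, so the values of both genes between the groups are a description with no test. The 7 genes had 19 probe sets, of which 12 passed the filter for testing, a log2 value of 4 or more on 3 or more of the 6 arrays.

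The cells came from Brown Leghorn embryos of stage 10 to 13, whose neural tubes were explanted with retrovirus. The explants were removed after 3 days, and the cells that had migrated out were kept. One group, called v-Myb here, has 3 arrays of cultures infected to express v-Myb-L3,4A-HAER, a v-Myb protein with a mutated leucine zipper whose activity 4-OH-tamoxifen induces. The other, called N118D, has 3 arrays of cultures with v-Myb-L3,4A-N118D-HAER, which also carries the N118D substitution in its DNA-binding part. All 6 cultures therefore expressed a zipper-mutant v-Myb constitutively and all received 4-OH-tamoxifen at 200 nM for 4 hours, and no array of uninfected or untreated cells was included. The share of infected cells was not given in the sources used here.

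Cells die by apoptosis through either of a pair of linked routes. In the death receptor route, the receptor FAS recruits the adaptor FADD, which gathers the protease caspase-8, the product of CASP8. CFLAR encodes FLIP, a relative of caspase-8 that lacks protease activity and competes for its place on FADD. In the mitochondrial route BCL2, BCL-xL (the product of BCL2L1) and MCL1 keep the outer mitochondrial membrane closed. BCL2 is a reported Myb target in blood cells, and in mice its loss depletes the melanocytes of the hair follicle.

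CFLAR, chosen by its difference between the groups, was the only one of these regulators whose groups did not overlap. No other member's profile over the 6 arrays correlated with that of CFLAR past the threshold. This does not show that the others did not follow it, since 6 arrays cannot take a single profile past the threshold. CFLAR was 1.57-fold higher in v-Myb cultures, a log2 difference of 0.65, on the only one of its 3 probe sets that was tested. The BCL2 probe sets were 1.12-fold to 1.18-fold higher, with overlapping groups. CASP8, FADD, FAS, BCL2L1 and MCL1 had differences of -0.14 to 0.20 on the log2 scale, all with confidence intervals that included 0. In limma 0 of the 12 member probe sets passed an adjusted p of 0.05, where 0% of all 16526 tested did, and 1 of the 12, that of CFLAR, had an unadjusted p under 0.05, against 1.91% of all tested in either direction and 0.841% higher in v-Myb. The groups did not overlap for the same 1 of 12, against 5.74% of all tested in either direction and 2.69% higher in v-Myb. Nothing is read from the CFLAR call, since CFLAR was chosen by this difference. Of the 11 other member probe sets 7 had a higher mean in v-Myb cultures, against 49.2% of all tested. The 7 include every BCL2 probe set, and a BCL2 difference was known beforehand, so nothing is read from this count.

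The 6 arrays had medians of 3.08 to 3.12 on the log2 scale. Neural crest markers were measured, with 9 of 10 tested and list means of 9.04 to 9.71, and SOX10 stood between 11.03 and 11.92 on every array, while SOX9 stayed at or below 2.46. Pigment cell markers, 9 of 10 tested, had list means of 10.85 to 11.71 in v-Myb and 10.61 to 11.003 in N118D cultures. Neuronal markers, 7 of 10 tested, had a list mean of 10.31 on v-Myb replicate 1, against 8.004 to 9.18 on the other arrays. Epithelial markers, 6 of 10 tested, had list means of 7.34 on v-Myb replicate 2, 8.04 on v-Myb replicate 3, and 8.96 to 9.40 on the others. A lower level in such mixed cultures can mean fewer cells of a type or less RNA per cell, which cannot be told apart. With 3 arrays a group, precision is limited by their number.

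CFLAR had the widest range of the tested member probe sets, at levels near the minimum of 4 for testing. Its tested probe set read 5.02, 5.15 and 5.66 in v-Myb replicates 1, 2 and 3 and 4.59, 4.75 and 4.54 in N118D replicates 1, 2 and 3. The groups did not overlap, with the largest step within a group between v-Myb replicate 3 and the others. The means were 5.28 ± 0.34 and 4.63 ± 0.11 (SD, n = 3 each). Of tested probe sets 0.169% had a difference as high or higher. Nothing is read from this rank, since CFLAR was chosen by its difference. Leaving out v-Myb replicate 3 brought the difference from 0.65 to 0.46, and leaving out v-Myb replicate 1 raised it to 0.78. Its range over the 6 arrays, 1.12, exceeded that of 90.3% of tested probe sets, whose median range was 0.42. That range includes the difference CFLAR was chosen by.

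The other CFLAR probe sets gave no second reading. One stayed between 2.60 and 2.66, and the other read 3.03 on v-Myb replicate 2 and 2.56 to 2.58 elsewhere. Both lay under the minimum for testing, so the CFLAR difference rests on 1 probe set. Blood cell markers, of which 3 of 7 were tested, also did not overlap between the groups, with list means of 6.28 to 6.48 in v-Myb and 5.89 to 6.20 in N118D cultures. This separation was that of LCP1, an actin-bundling protein gene of leukocytes, with 5.23 to 6.13 against 4.68 to 4.94. PTPRC overlapped, with 5.75 to 5.87 against 5.24 to 5.78, and CD74 was lower on average in v-Myb cultures by a log2 difference of -0.26. Among the untested, the myeloid markers SPI1 and CSF1R stayed at or below 3.85 on every array, and the probe sets of the haemoglobin gene HBAD ran from 1.85 to 7.29. The part of these cells in the CFLAR result was not tested.

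**Figure D1:**
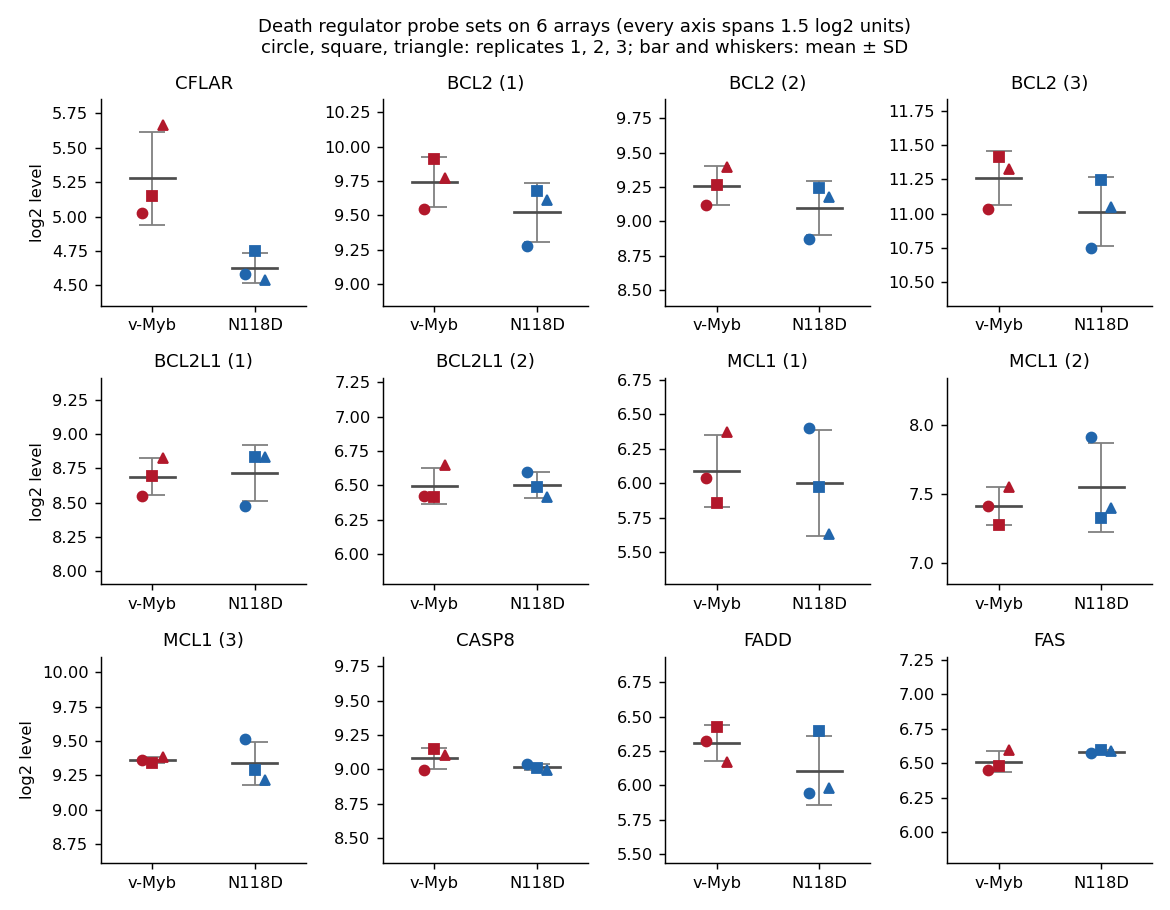
Log2 levels of the 12 tested probe sets, with 1 panel per probe set, v-Myb arrays in red and N118D arrays in blue, and the mean ± SD of 3 arrays drawn as a bar with whiskers. Numbers in brackets tell apart the probe sets of a gene, as in the text, with those of MCL1 running from the dimmest to the brightest. The groups separate for CFLAR, with 5.02 to 5.66 against 4.54 to 4.75, and overlap in the other panels.

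In the chicken genome the gene order places CFLAR beside its caspase relatives, with CASP10, CASP18 and CASP8 following it in that order in the RefSeq annotation of assembly GRCg7b. These neighbours were looked up after the values had been seen. CASP10, an initiator caspase, stayed between 2.21 and 2.25 and CASP18, a caspase gene of birds and other vertebrates, between 2.19 and 2.28, both under the minimum for testing. On the other side of CFLAR, NDUFB3, a subunit of respiratory complex I, had tested probe sets with differences of 0.03, -0.06 and 0.12. Of the other protein-coding genes up to 5 places away, PPIL3 alone, a cyclophilin gene, had non-overlapping groups, with a difference of -0.11. Among all tested probe sets 5.74% did not overlap in either direction, and nothing is read from PPIL3.

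FAS, the death receptor, was nearly flat across the cultures. Its tested probe set read 6.45, 6.48 and 6.596 in v-Myb replicates 1, 2 and 3 and 6.57, 6.59 and 6.59 in N118D replicates 1, 2 and 3. The groups overlapped only through v-Myb replicate 3, the highest of all 6 arrays. The difference was -0.08 with a standard error of 0.07 and a 95% confidence interval of -0.25 to 0.10, and the limma adjusted p was 0.9999, as for all members tested. A second FAS probe set stayed between 2.49 and 2.51.

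FADD, the adaptor between FAS and caspase-8, was higher on average in v-Myb cultures but with groups that overlapped. Its tested probe set read 6.32, 6.43 and 6.17 in v-Myb replicates 1, 2 and 3 and 5.95, 6.396 and 5.98 in N118D replicates 1, 2 and 3. N118D replicate 2 stood with the v-Myb arrays. The difference was 0.20 with a standard error of 0.15 and a 95% confidence interval of -0.16 to 0.56 (limma adjusted p 0.9999). It was 0.34 without N118D replicate 2 and 0.12 without N118D replicate 1. A further pair of FADD probe sets stayed at or below 2.91.

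CASP8, the gene of the initiator caspase that FLIP competes with, varied little between cultures. Its probe set read 8.99, 9.14 and 9.10 in v-Myb replicates 1, 2 and 3 and 9.04, 9.01 and 8.99 in N118D replicates 1, 2 and 3. Replicates 2 and 3 of the v-Myb group lay above all N118D arrays, and v-Myb replicate 1 lay at the lowest level of the 6. The difference was 0.06 with a standard error of 0.07 and a 95% confidence interval of -0.12 to 0.24 (limma adjusted p 0.9999), so the interval reached a rise of 1.18-fold at most. The range over the 6 arrays was 0.15, and 8.01% of tested probe sets had a smaller one.

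**Figure D2:**
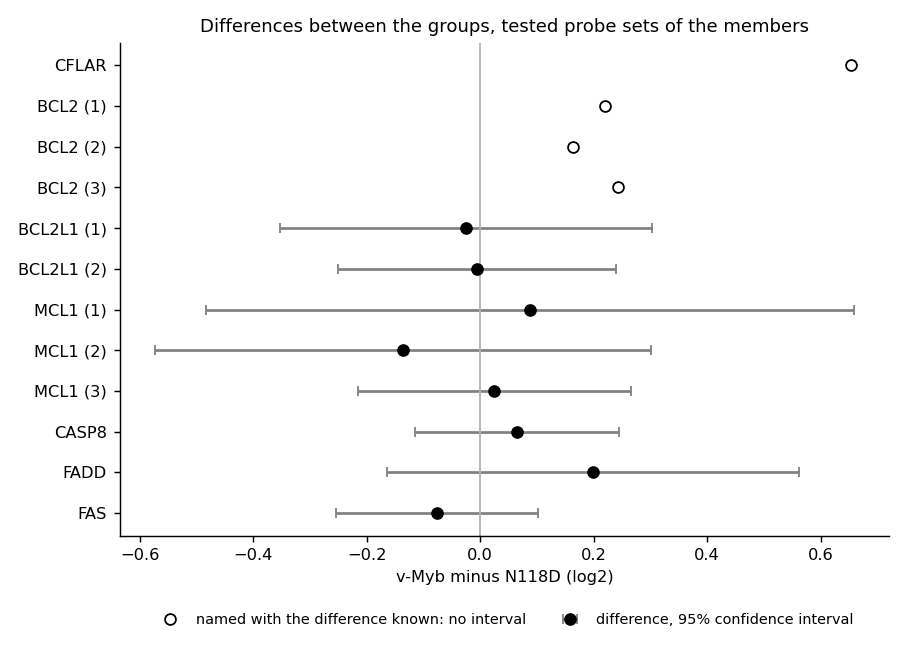
Log2 differences, v-Myb minus N118D, of the 12 tested probe sets (x axis), with 95% confidence intervals from limma for filled points, and open points without an interval for CFLAR and BCL2, whose differences were known when they were named. CFLAR stands at 0.65, BCL2 at 0.16 to 0.24, and all intervals drawn include 0.

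BCL2, the founding survival gene of its family, was read by 3 tested probe sets, all of them a little higher in v-Myb cultures. The first read 9.55, 9.91 and 9.77 in v-Myb replicates 1, 2 and 3 and 9.28, 9.68 and 9.61 in N118D replicates 1, 2 and 3. The second read 9.12, 9.26 and 9.40 against 8.87, 9.24 and 9.17, in the same order of arrays. The third read 11.04, 11.41 and 11.33 against 10.75, 11.25 and 11.05. On each probe set N118D replicate 1 was lowest and v-Myb replicate 1 next lowest, and v-Myb replicates 2 and 3 were the highest, so the groups overlapped through v-Myb replicate 1.

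The 3 BCL2 differences were 0.22, 0.16 and 0.24 on the log2 scale, with standard errors of 0.15, 0.13 and 0.16. Of all tested probe sets, 6.15%, 10.1% and 4.998% had a difference as high or higher, which is given as a description with no test. Leaving out N118D replicate 1 brought the 3 differences to 0.10, 0.05 and 0.11, and leaving out v-Myb replicate 1 raised them to 0.32, 0.23 and 0.35.

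BCL2 ranked the cultures much as the mean of the pigment cell genes did, a pattern noticed after the values were seen. The mean of the 9 tested pigment cell markers was 10.85, 11.71 and 11.19 in v-Myb replicates 1, 2 and 3 and 10.61, 11.003 and 10.92 in N118D replicates 1, 2 and 3. From lowest to highest this placed the arrays as N118D 1, v-Myb 1, N118D 3, N118D 2, v-Myb 3 and v-Myb 2. The first and the third BCL2 probe sets had that order on all 6 arrays, and the second had it apart from an exchange of v-Myb replicates 2 and 3. None of the other 9 tested member probe sets had it, and 0.962% of all tested probe sets did. The order is that of the mean and not of every pigment gene. MITF, DCT, TYR and MLANA had it, while KIT, TYRP1, PMEL, OCA2 and EDNRB2 did not. KIT was lowest on v-Myb replicate 1 and PMEL on N118D replicate 3. MITF, the transcription factor that directs melanocyte fate, ran from 10.41 on N118D replicate 1 to 11.65 on v-Myb replicate 2. The part of pigment cell content in the BCL2 values was not tested.

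**Figure D3:**
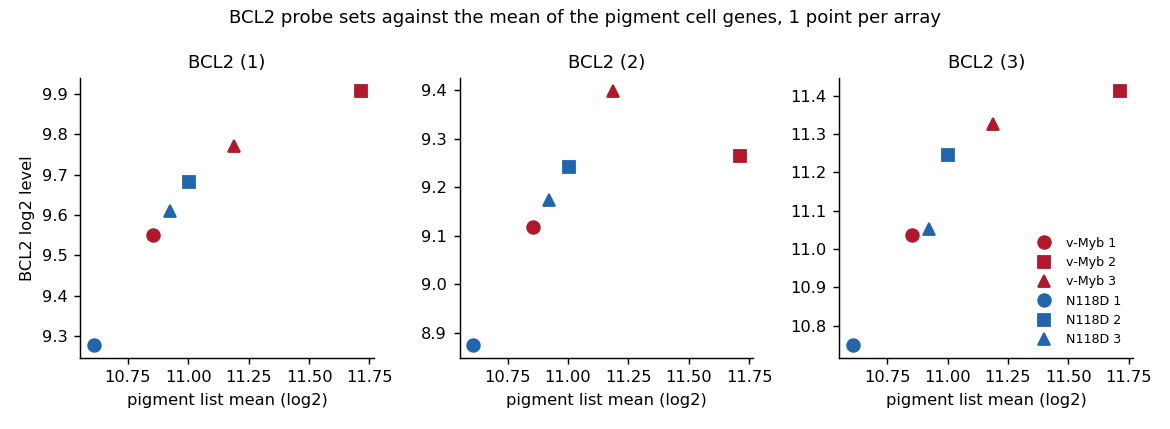
Log2 level of each BCL2 probe set (y axis, 1 panel each) against the mean log2 level of the 9 tested pigment cell genes (x axis), with 1 point per array, v-Myb in red and N118D in blue. N118D replicate 1 is lowest on both axes in all panels, and v-Myb replicate 2, with the highest pigment mean of 11.71, is also highest in the first and the third panel.

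BCL2L1, whose product BCL-xL guards the mitochondrial membrane, differed between the groups by less than the spread between replicates. Its brighter probe set read 8.55, 8.69 and 8.82 in v-Myb replicates 1, 2 and 3 and 8.48, 8.83 and 8.84 in N118D replicates 1, 2 and 3. Both arrays numbered 1 were the lowest of the 6. The difference was -0.02 with a 95% confidence interval of -0.35 to 0.30 (limma adjusted p 0.9999). The dimmer probe set, between 6.41 and 6.65, had a difference of -0.01 with an interval of -0.25 to 0.24, and it was highest on v-Myb replicate 3 and N118D replicate 1. Its untested probe set stayed at or below 2.02.

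MCL1, a short-lived relative of BCL2, differed in sign between its probe sets. The brightest, MCL1 (3), read 9.36, 9.34 and 9.39 in v-Myb replicates 1, 2 and 3 and 9.51, 9.29 and 9.21 in N118D replicates 1, 2 and 3. The v-Myb arrays lay close together, inside the span of the N118D arrays. Its difference was 0.02 with a 95% confidence interval of -0.22 to 0.27 (limma adjusted p 0.9999). MCL1 (1), at 5.63 to 6.401, and MCL1 (2), at 7.27 to 7.92, differed by 0.09 and -0.14, with standard errors of 0.23 and 0.18. All 3 were highest on N118D replicate 1, the array on which mesenchymal markers (8 of 8 tested) had their highest list mean, 11.51 against 10.81 to 11.19. Endothelial markers (3 of 5 tested) also had their highest list mean there, 5.96 against 5.39 to 5.84. Not every gene of these lists was highest on N118D replicate 1. The mesenchymal genes COL1A1 and POSTN were highest on other arrays, and the endothelial gene PECAM1 was second lowest there, at 4.90. The part of these cell types in the MCL1 values was not tested. The untested MCL1 probe set stayed at or below 2.18. The 7 probe sets of the members that were not tested lay between 1.98 and 3.03 on all arrays.

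Whether other death regulators followed CFLAR from array to array was measured as Pearson's r and Spearman's rho over the 6 arrays. These include the difference between the groups, which CFLAR was named for. Of the 11 other member probe sets, 9 had an r above 0, against 48.9% of all tested. The 9 include every BCL2 probe set, and a BCL2 difference was also known beforehand, so nothing is read from this count. For the 3 BCL2 probe sets r was 0.611, 0.721 and 0.662 and rho 0.657, 0.714 and 0.657, and 6.87%, 3.35% and 4.998% of tested probe sets had an r as high or higher. CASP8 had an r of 0.653 and a rho of 0.543, and FADD an r of 0.400 and a rho of 0.543. The BCL2L1 probe sets had r of 0.230 and 0.385 with rho of -0.200 and 0.429. MCL1 (1), (2) and (3) had r of 0.396, -0.190 and 0.153 with rho of 0.257, -0.0857 and 0.371, and FAS had an r of -0.156 with a rho of 0.0857.

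Of all probe sets compared, the middle 90% had an r of -0.683 to 0.662. The second BCL2 probe set lay beyond this range, the third lay past its upper end by less than the rounding, and the other 9 lay within it. For CASP8, FADD, FAS, MCL1 and BCL2L1 the exact permutation p of r, two-sided over the 720 pairings of 6 arrays, ran from 0.175 for CASP8 to 0.815 for FAS, and that of rho from 0.297 to 0.919. With Benjamini-Hochberg adjustment over the 16525 probe sets compared with CFLAR, the adjusted p of r was 0.991 to 0.992 and that of rho 1. Of all compared, 0% passed the adjusted threshold and 2.58% had an unadjusted p under 0.05. The smallest p of r that 6 arrays can give is 0.0014, and a rho of 1 had a permutation p of 0.00278. The smallest adjusted p of r among all probe sets was 0.991, also for those at the smallest p. No member could therefore have passed by its own r.

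With the group means removed, so that only the spread within groups counts, r was 0.308, 0.638 and 0.440 for BCL2, 0.389 for CASP8 and -0.0936 for FADD. It was 0.570 and 0.777 for BCL2L1 and 0.966 for FAS, whose probe set spanned 0.14 on the log2 scale. For MCL1 (1), (2) and (3) it was 0.495, 0.160 and 0.0750. Here 10 of the 11 had a value above 0, against 47.6% of all tested. The 11 are probe sets of only 6 genes, so nothing is read from this count. For the 3 BCL2 probe sets 32.5%, 13.8% and 25.2% of tested probe sets had a value as high or higher, and for FAS 0.563% did. CFLAR was farthest from its median on v-Myb replicate 3 and N118D replicate 3. Without these arrays, with 4 left, r was 0.794, 0.694 and 0.727 for BCL2, 0.496 for CASP8 and 0.757 for FADD, while FAS stood at -0.869, MCL1 at -0.816, -0.768 and -0.541 and the dimmer BCL2L1 probe set at -0.945. FADD thus had an r above 0 only with the difference between the groups kept in. FAS stayed below 0 whichever array was left out and was above 0 with the group means removed, while the signs for BCL2L1 and MCL1 changed with the arrays used.

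**Figure D4:**
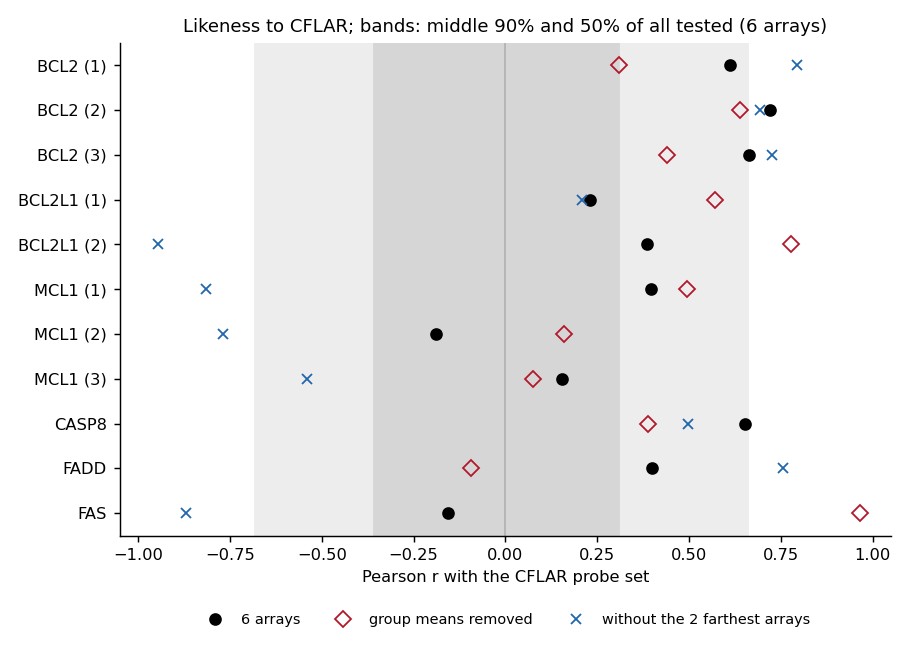
Pearson's r of the 11 other tested member probe sets with CFLAR (x axis) over 6 arrays (black points), with the group means removed (open diamonds) and without the 2 arrays farthest from the CFLAR median (crosses). The darker band spans the quartiles of all tested probe sets over 6 arrays and the paler band the middle 90%, up to 0.662, and the second BCL2 probe set, at 0.721, lies beyond it.

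None of the genes with 1 symbol whose profile was most like that of CFLAR was in the apoptosis lists. Nothing is read from this, since those lists hold 65 tested genes beside 13445 tested probe sets with 1 symbol. The genes most like CFLAR were picked with the members left out. By r over the 6 arrays these were MIEN1, encoding a membrane-anchored protein (0.993), ACAD9, a mitochondrial acyl-CoA dehydrogenase (0.988), RPL36, a ribosomal protein gene (0.986), SIK1, a salt-inducible kinase (0.980), PISD, which makes phosphatidylethanolamine (0.972), and FAM134C (0.961). A probe set with no symbol, not named here, ranked between RPL36 and SIK1. The most opposed were MRPS17, a mitochondrial ribosomal protein gene (-0.993), UBLCP1, a phosphatase of the proteasome (-0.985), and BDH1B (-0.979). Their rho was 0.886 to 1 in size, and the exact permutation p of r, 0.00139 to 0.00556, had an adjusted value of 0.991 for all 9. Without the 2 arrays farthest from the CFLAR median r was 0.941 to 0.996 for the first 6 and -0.989 to -0.908 for the last 3. Since these genes were picked by r over the same 6 arrays, the rho, p and r given here follow largely from the choice. Nothing further is read from them. Their differences between the groups were far smaller than that of CFLAR, as with 0.08 for MIEN1 and 0.07 for RPL36, and reached -0.32 for BDH1B.

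Among 104 further apoptosis genes in 8 lists, 80 had a probe set and 65 were tested, each by its brightest tested probe set. Of the 65, 29 were higher and 36 lower in v-Myb cultures, with a median difference of -0.01 on the log2 scale against -0.0018 for all tested probe sets. In limma 0 passed in either direction. An unadjusted p under 0.05 was found for 2 of the 65, against 1.91% of all tested, and the groups did not overlap for 3 of the 65, against 5.74% of all tested, shares so close that nothing is read from these counts. The median r with CFLAR was -0.0080, against -0.013 for all tested.

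Death receptors and their ligands, 9 tested, had a median difference of -0.01, with 4 higher and 5 lower. The ends were TNFSF15, a TNF family ligand, at 0.15 and TNFAIP3, the inhibitor of NF-kB signalling known as A20, at -0.25. TNFSF15 was brightest on the arrays numbered 3, with 10.18 in v-Myb and 9.74 in N118D, and its groups overlapped. The other tested TNFSF15 probe set differed by 0.25. Adaptors and other members of receptor complexes, 7 tested, had a median of 0.04, with 6 higher and 1 lower, from -0.02 for the adaptor CRADD to 0.15 for the deubiquitinase CYLD. A further CYLD probe set, also tested, differed by 0.18. Caspases and the caspase-8 partner CASP8AP2, 5 genes tested, had a median of -0.01, with 1 higher and 4 lower, from -0.24 for the effector caspase gene CASP6 to 0.06 for CASP1. The other tested CASP6 probe set differed by -0.01.

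Of the other survival members of the BCL2 family and functional relatives, 4 were higher and 2 lower, with a median of 0.02. TMBIM6, the BAX inhibitor-1 gene, stood at 0.13 and BCL2A1 at -0.46. For BCL2A1, N118D replicate 1 read 6.44 and the other arrays 4.97 to 5.203. BCL2L10, known in birds as NR-13, differed by 0.10 and read 13.35 to 13.61, with a difference of 0.01 on its other probe set. Pro-apoptotic family members, 9 tested, had 4 higher and 5 lower and a median of -0.01. BNIP3, a mitophagy receptor, differed by 0.20, with 0.09 on its other probe set. BCL2L15 read 4.04, 3.17 and 4.35 in v-Myb replicates 1, 2 and 3 and 4.72, 4.87 and 4.43 in N118D replicates 1, 2 and 3, a difference of -0.81 with a 95% confidence interval of -1.59 to -0.04 (limma adjusted p 0.9999). Its groups did not overlap, at levels around the minimum of 4 for testing. The lowest array was v-Myb replicate 2. It was also lowest for the list means of epithelial (6 of 10 tested), neural tube progenitor (5 of 7), skeletal muscle (3 of 6) and glial markers (2 of 5). Neither tested glial gene, MBP or FABP7, was itself lowest there. HES5, OTX2, KRT5 and TNNT3 of the other lists were also lowest on other arrays. The part of these cell types in the BCL2L15 values was not tested.

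Inhibitors of apoptosis proteins and their antagonists, 5 tested, had a median of 0.02, with 3 higher and 2 lower, between -0.16 for BIRC2, the gene of cIAP1, and 0.07 for HTRA2, a mitochondrial protease. Mitochondrial and execution factors, 15 tested, had a median of -0.02, with 5 higher and 10 lower, between -0.31 for the outer membrane channel gene VDAC1 and 0.10 for AIFM1, the apoptosis-inducing factor. Genes of p53 and survival signalling, 9 tested, had a median of -0.09, with 2 higher and 7 lower. MDM4, a p53 inhibitor, differed by 0.30 with an r of 0.709 with CFLAR, the highest of the 65. The lowest r of the 65, -0.863 for BAG1 of the survival list, was larger in size. STK17A, a kinase of the death-associated family, read 7.03, 6.17 and 6.85 in v-Myb replicates 1, 2 and 3 and 7.41, 7.197 and 7.19 in N118D replicates 1, 2 and 3, a difference of -0.58 with a 95% confidence interval of -1.15 to -0.0044 (limma adjusted p 0.9999). The groups did not overlap for STK17A and for TP63, which also stands in the epithelial marker list and differed by -0.38.

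**Figure D5:**
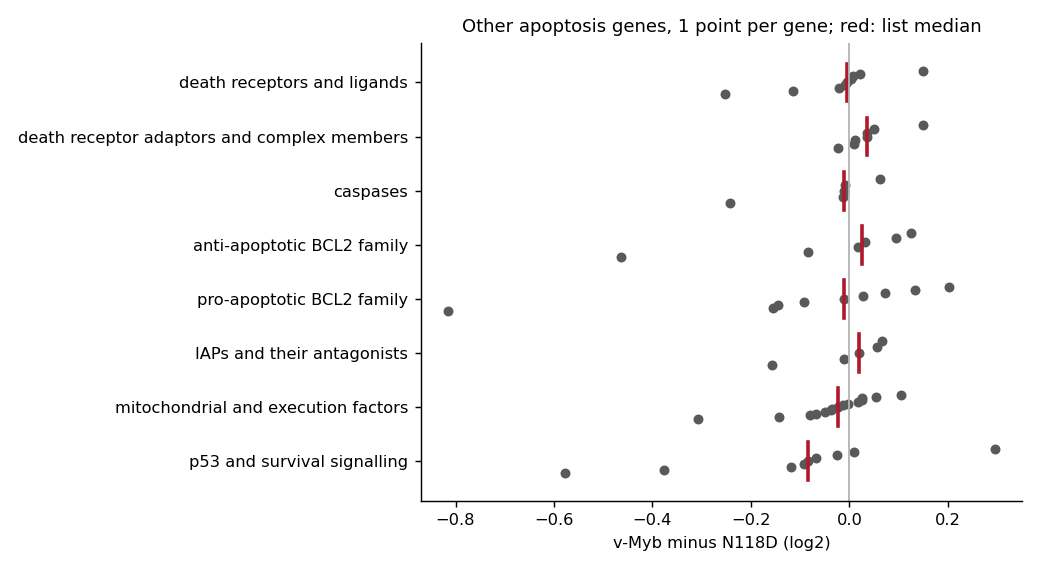
Log2 differences, v-Myb minus N118D (x axis), of the 65 tested apoptosis genes outside the members, by list, with 1 point per gene and the list median as a red bar. The medians lie between -0.09 and 0.04, and BCL2L15 is the lowest point at -0.81.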

How the data were processed

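RNA of 6 cultures was labelled by in vitro transcription and hybridised to an Affymetrix chicken array, per the labels' protocols. Each array has 1 deposited log2 value per probe set, a scale read from the values, and GCRMA and Partek 6.4 appear in the submitters' processing notes, which do not give Partek's role here. GCRMA pulls dim probe sets towards a floor, which can change differences at low levels such as those of CFLAR. Its effect on the CFLAR difference was not tested.

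Of 38535 probe sets, 96 controls were left out and 16526 with values of 4 or more on 3 or more arrays were tested with limma 3.58.1 in R 4.3.3. The fit had the group alone as a term, and two-sided p-values were adjusted by Benjamini-Hochberg over all tested, at 0.05. Every difference is the v-Myb mean less the N118D mean. Likeness to CFLAR was tested by exact permutation of the arrays. Symbols came from the platform annotation, and list genes were also matched through its Entrez IDs to RefSeq symbols (GRCg7b). Both methods were tested on simulated data. For limma the planted differences were larger than any member difference here, so that test says nothing of smaller ones.

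The titles call the replicates biological, and nothing used here says if each had its own embryos, so the p-values cover only the spread among these cultures, which may be technical. The members, gene lists and tests were chosen with earlier results of these data known. Named were all member probe sets, the highest and lowest difference of each list, and, among probe sets with 1 symbol, the 6 genes most like and 3 least like CFLAR. Other genes named were chosen after their values were seen. Sequences were not used here.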

Additional observations from a re-analysis of the deposited data

How the results depend on the processing

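Alternatives were quantile normalization, centred array medians, no filter, a minimum of 6 (which leaves CFLAR untested), trend and robust eBayes, array weights, the replicate block and leaving out each array, with both arrays numbered 1 left out added after seeing the data. In limma 0 probe sets passed the adjusted threshold in any of them, the smallest adjusted p being 0.0553, without v-Myb replicate 1. The count at an unadjusted p under 0.05, 315 in the report, was 734 with no filter, 202 with the minimum of 6, 671 with array weights, 666 with the replicate block and 1104 without both arrays numbered 1, and 176 to 1206 leaving out 1 array, the ends being v-Myb replicates 2 and 1, with 565 without v-Myb replicate 3. The cause of these shifts was not tested. Same-numbered arrays deviated from their group means with correlations of 0.401, 0.445 and -0.0479, and arrays of unlike number with -0.567 to 0.421. These values do not settle whether the arrays are paired. The numbers were not taken as pairs, and the replicate block changed no call. In same-numbered pairs, v-Myb was higher in all 3 for CFLAR, BCL2 and FADD, against 10.8% of all tested. Nothing is read from this, since CFLAR was chosen by its difference and a BCL2 difference was known beforehand. With groups that did not overlap, CFLAR had to be higher in every pair. It was higher in 1 or 2 of the pairs for the other tested member probe sets.

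CFLAR stayed higher, at 0.46 to 0.78 leaving out 1 array, and so did BCL2, CASP8 and FADD, while FAS stayed lower. For CFLAR, chosen by this difference and with groups that did not overlap, leaving out an array could not change the sign. Of 178 alternative differences 16 changed sign, all of BCL2L1 or MCL1. The brighter BCL2L1 probe set ran from -0.14 to 0.045 leaving out 1 array. The dimmer one ran from -0.083 to 0.043, and was 0.014 with quantile normalization, 0.0058 with centred medians, 0.036 with array weights and 0.080 without both arrays numbered 1. The 3 MCL1 probe sets, from dimmest to brightest, ran from -0.098 to 0.29, -0.25 to 0.048 and -0.038 to 0.11, and the second was 0.046 without both arrays numbered 1.

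Of 143 alternative correlations 18 changed sign, none of them of BCL2 or CASP8. The 143 include those with no filter, which cannot change an r. Leaving out 1 array gave r of -0.161 to 0.537 and -0.512 to 0.748 for BCL2L1 and -0.0978 to 0.874, -0.549 to 0.547 and -0.251 to 0.889 for MCL1. Without both arrays numbered 1 the brighter BCL2L1 probe set had -0.232, and the second MCL1 probe set 0.551, with 0.160 when group means were removed. FAS was 0.0390 with quantile normalization and 0.0137 with centred medians. It was 0.966 with group means removed, where FADD had -0.0936. Spearman's rank correlation was 0.0857 for FAS and -0.200 for the brighter BCL2L1 probe set. Without the 2 farthest arrays r was -0.945 for the dimmer BCL2L1 probe set and -0.816 and -0.541 for the first and the third of MCL1.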

Other observations

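BCL2A1, a short-lived survival gene of the BCL2 family that NF-kB induces in mammalian blood cells, stood apart on 1 culture. Its tested probe set read 6.44 on N118D replicate 1 and 4.97 to 5.203 on the other 5 arrays, and its other probe set 4.44 against 2.78 to 2.84. These values were picked out after they had been seen. On the same array CD74, which antigen-presenting cells express, was at 8.37 against 7.51 to 7.89 on the others, and CDH5, an endothelial cadherin, at 8.21 against 6.14 to 7.71. The other tested endothelial genes differed among themselves there, with VWF highest at 4.76 and PECAM1 second lowest of 6 arrays at 4.90, within 4.34 to 5.95, and the pan-leukocyte gene PTPRC was at 5.29 within 5.24 to 5.87. The part of other cell types in the BCL2A1 value was not tested.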
